A study of Homo sapiens with 6 samples.

Results

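Genes of the Polycomb repressive complexes were followed in Y79, an established retinoblastoma cell line in which MYCN is amplified. The 10 genes were chosen by name, namely EZH2, EZH1, EED, SUZ12, JARID2, MTF2, PHF19, CBX2, BMI1 and RING1, and all 10 were found among the 17013 genes of the deposited count table. Cells carried either a short hairpin RNA against MYCN (labelled as MYCN knockdown, 3 libraries) or a control hairpin (labelled as MYCN wild-type, 3 libraries). Both groups were harvested alike, belong to 1 labelled batch and are described by the series as independent biological replicates. No source used here gives the hairpin sequences, how many hairpins were used or the time after transduction, and values of single hairpins cannot be told apart. Poly(A) RNA was sequenced from both fragment ends, and the values are estimated read counts per gene.

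Polycomb proteins keep developmental genes silent by marking the histones around them. Polycomb repressive complex 2 (PRC2) methylates histone H3 at lysine 27 (H3K27) through EZH2 or its paralogue EZH1, held together with EED and SUZ12 and steered to chromatin by accessory subunits such as JARID2, MTF2 and PHF19. Polycomb repressive complex 1 (PRC1) ubiquitinates a lysine in the tail of histone H2A (H2AK119) through RING1 or its paralogue RNF2, paired with a PCGF protein such as BMI1, and its CBX subunits bind methylated H3K27. In the retina both complexes act during the passage from progenitor to neuron. EZH2 and EED are also known targets of E2F transcription factors, which the retinoblastoma protein restrains.

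The annotated start regions are shown because paralogues and partners in one complex moved in different directions. RefSeq windows of 300 bases (250 before and 50 after a start, GRCh38.p14) were matched for 9 members, and CBX2 had none. The windows printed are those of EZH2, which holds the sequence TTTGGCGC, of EZH1, its paralogue that moved the other way, of JARID2, the member with the largest increase, and of SUZ12, which like EZH2 holds both types of sequence marked. EZH2 and JARID2 have a second annotated window each, which is not printed. Capitals mark CACGCG, a variant of the E-box bound by MYC proteins, and the E2F-type sequences TTTGGCGC and TTTCCCGC, each read on both strands. The window of EZH2 is chr7:148884242-148884541 (minus strand), that of EZH1 chr17:42744991-42745290 (minus strand), that of JARID2 chr6:15245819-15246118 (plus strand) and that of SUZ12 chr17:31936757-31937056 (plus strand).

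EZH2: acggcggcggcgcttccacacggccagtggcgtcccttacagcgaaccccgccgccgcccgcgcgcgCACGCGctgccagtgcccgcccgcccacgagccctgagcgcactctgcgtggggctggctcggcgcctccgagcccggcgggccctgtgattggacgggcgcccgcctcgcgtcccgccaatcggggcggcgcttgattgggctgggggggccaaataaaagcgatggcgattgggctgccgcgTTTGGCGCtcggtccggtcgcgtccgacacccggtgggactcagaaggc

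EZH1: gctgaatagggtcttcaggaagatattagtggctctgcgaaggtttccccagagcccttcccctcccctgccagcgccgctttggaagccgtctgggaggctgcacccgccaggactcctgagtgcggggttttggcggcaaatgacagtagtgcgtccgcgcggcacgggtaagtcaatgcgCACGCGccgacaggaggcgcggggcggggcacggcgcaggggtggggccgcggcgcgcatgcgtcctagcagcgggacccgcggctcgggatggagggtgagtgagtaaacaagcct

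JARID2: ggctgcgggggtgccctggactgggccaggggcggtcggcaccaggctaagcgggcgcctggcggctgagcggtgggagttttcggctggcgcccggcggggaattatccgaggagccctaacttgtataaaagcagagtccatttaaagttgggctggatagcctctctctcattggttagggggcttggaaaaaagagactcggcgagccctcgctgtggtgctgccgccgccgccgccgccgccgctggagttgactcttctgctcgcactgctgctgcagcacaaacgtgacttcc

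SUZ12: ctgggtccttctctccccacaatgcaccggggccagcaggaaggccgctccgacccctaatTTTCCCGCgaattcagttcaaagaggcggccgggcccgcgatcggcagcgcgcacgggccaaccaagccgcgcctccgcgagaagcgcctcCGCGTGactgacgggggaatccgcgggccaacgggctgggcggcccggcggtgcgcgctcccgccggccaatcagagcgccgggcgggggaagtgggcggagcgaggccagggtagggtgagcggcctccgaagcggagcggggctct

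The canonical E-box CACGTG was found in a window of 1 of the 9 members (BMI1) and in a window of 12.7% of 10352 tested genes with windows. CACGCG was found in 5 of 9 (BMI1, EZH1, EZH2, RING1 and SUZ12), against 22.8% of genes. TTTCCCGC was found in 3 of 9 (MTF2, PHF19 and SUZ12), against 3.24% of genes, and TTTGGCGC in EZH2, against 1.42% of genes. No overlap between the searched sequences occurred in the windows printed above, and a match describes letters only.

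Library totals were 15490263 to 15762707 counts with the MYCN hairpin and 15515994 to 16078416 with the control hairpin, and single members had 544 to 4913 counts per library. MYCN itself (chromosome 2, 15940564 to 15947007) was lower with its hairpin but stayed abundant, at 2297.5 ± 110 CPM (counts per 1000000, scaled by TMM factors) against 3016.5 ± 129 CPM with the control hairpin (SD, n = 3 each), which is -0.39 ± 0.043 (SE) as log2 fold change (adjusted p = 8.0e-11 by edgeR's quasi-likelihood test). Of 12819 tested genes, 75.8% passed an adjusted p of 0.05, with 38.0% higher and 37.9% lower, and 76.8% had no overlap between MYCN hairpin and control hairpin libraries. A call on a single gene is therefore common in these data. Variation between replicates beyond counting noise was small (common coefficient of variation 3.34%). The p-values measure spread among libraries of this cell line, not among lines or hairpins. Scaling by library sizes alone moved the median over all tested genes to 0.19 (log2), against 0.0046 with TMM, and the calls to 6597 higher and 3348 lower in place of 4865 and 4857.

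Among the 10 members, EZH2, JARID2, CBX2 and EED rose, EZH1, SUZ12 and PHF19 fell (SUZ12 and PHF19 not with library sizes alone), and MTF2, RING1 and BMI1 did not pass the test. The 7 called members of 10 stand beside 75.8% of all tested genes, 4 higher beside 38.0% and 3 lower beside 37.9%, and 7 of 10 did not overlap between groups, beside 76.8%. The counts are thus near the background, and the median log2 fold change of the members was 0.025 beside 0.0046 for all tested genes. Single members ranged from -0.51 for EZH1 to 1.12 for JARID2. With library sizes alone 6 members were called higher and 1 lower.

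**Figure D1:**
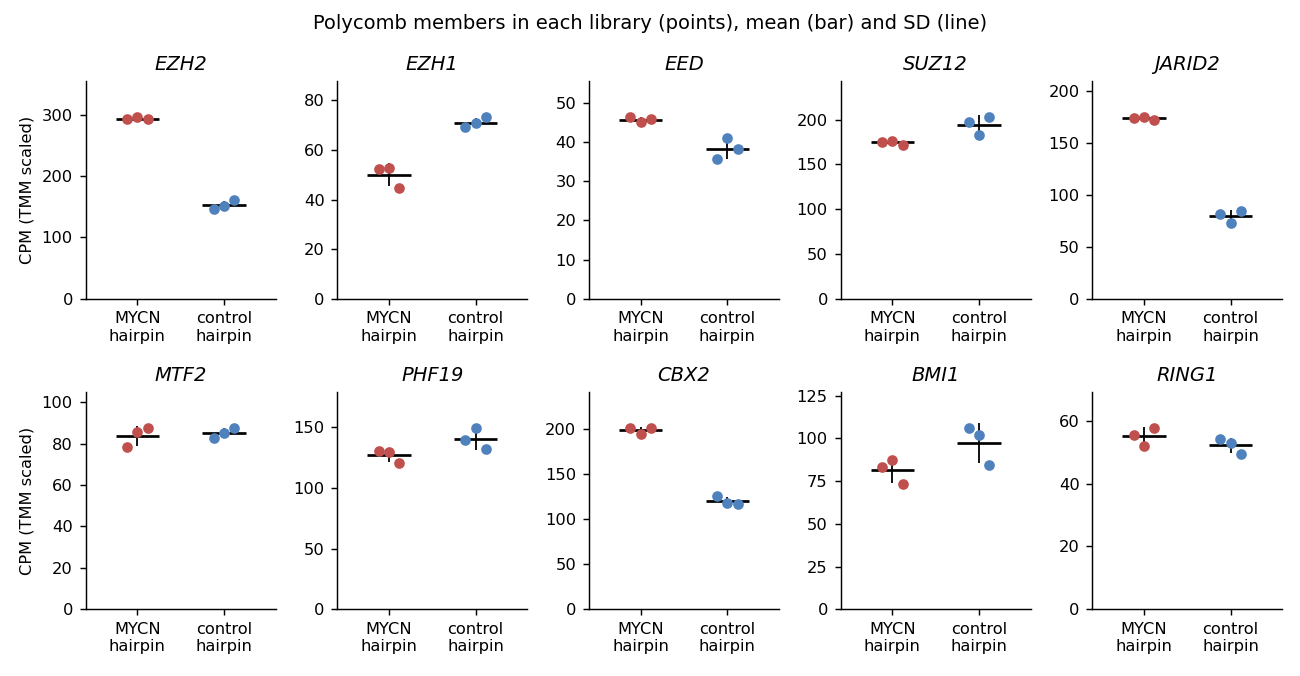
CPM of each member (vertical axes, from 0) in the 3 MYCN hairpin and the 3 control hairpin libraries, with means (bars) and SD (lines). EZH2, JARID2 and CBX2 show the widest gaps upwards, with 293.4, 173.3 and 198.5 CPM on average with the MYCN hairpin, and EZH1 the widest gap downwards, with 49.9 CPM.

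The catalytic subunits of PRC2 moved in opposite directions. EZH2 (chromosome 7, 148807383 to 148884321, minus strand), the main H3K27 methyltransferase of dividing cells, had 292.3, 295.7 and 292.1 CPM in MYCN hairpin libraries, against 146.8, 151.2 and 160.7 CPM in control hairpin libraries. All MYCN hairpin libraries lay far above all controls, and their own spread was small. EZH2 was 1.92-fold higher, a log2 change of 0.94 ± 0.040 (SE, adjusted p = 5.6e-24 by edgeR), and 10.1% of tested genes had a higher fold change.

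EZH1 (chromosome 17, 42700275 to 42745049, minus strand), the paralogue that predominates in resting and differentiated cells, had 52.5, 52.8 and 44.5 CPM with the MYCN hairpin, against 69.1, 70.8 and 73.1 CPM with the control hairpin. The groups did not overlap, and MYCN hairpin replicate 3 was the lowest library. EZH1 fell by 0.51 ± 0.056 on the log2 scale (adjusted p = 9.5e-11, edgeR), and 17.8% of tested genes had a lower fold change.

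The balance between both enzymes can be read within a library, where scaling between libraries plays no part. The log2 ratio of EZH1 to EZH2 counts was -2.48, -2.49 and -2.71 with the MYCN hairpin, against -1.09, -1.09 and -1.14 with the control hairpin. The difference was -1.45, or 0.365 times the ratio with the control hairpin, and the libraries did not overlap (two-sided exact permutation test, p = 0.1, the smallest that 3 against 3 libraries allow; adjusted p = 0.15 over 6 ratios). Per kilobase (1000 bases) of transcript (CPM divided by the length of 1 GENCODE 29 transcript), EZH1 made up 8.85% ± 0.73 of the EZH1 and EZH2 level with the MYCN hairpin and 21.0% ± 0.30 with the control hairpin (SD, n = 3 each). The summed level of both was 122 ± 1.6 and 73.3 ± 3.1 CPM per kilobase.

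**Figure D2:**
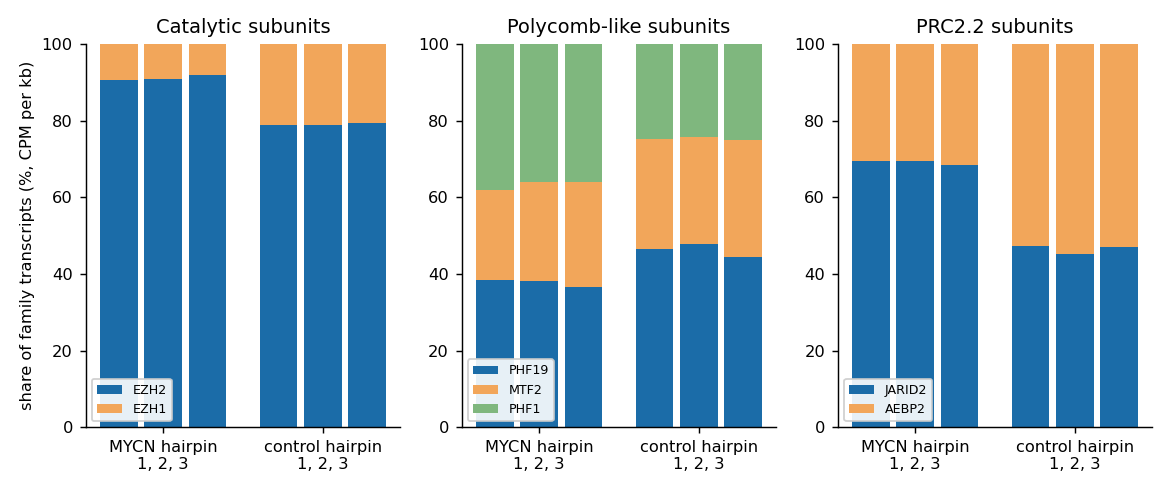
Share (vertical axis, percent of the family's CPM per kilobase) of each paralogue in 3 subunit families, 1 bar per library, MYCN hairpin libraries left of control hairpin libraries in each panel. The EZH1 share is smaller with the MYCN hairpin (8.85% against 21.0%), and the JARID2 share larger (69.2% against 46.6%).

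EED and SUZ12, the non-catalytic members that hold the enzyme in the complex, changed less than EZH2 or EZH1. The PRC2 subunits RBBP4 and RBBP7, which are no members, are given below. EED (chromosome 11, 86244544 to 86278813), which reads trimethylated H3K27 and stimulates the enzyme, had 46.4, 45.2 and 45.8 CPM with the MYCN hairpin, against 35.7, 40.9 and 38.1 CPM with the control hairpin. All 3 MYCN hairpin libraries were above the controls, and EED rose by 0.26 ± 0.058 (adjusted p = 1.2e-04, edgeR). SUZ12 (chromosome 17, 31937018 to 32001045), the scaffold of the complex, had 175.2, 176.0 and 172.2 CPM with the MYCN hairpin, against 197.6, 182.6 and 202.6 CPM with the control hairpin. SUZ12 was slightly lower without overlap, at -0.15 ± 0.041 (adjusted p = 8.0e-04), but with library sizes alone its log2 fold change was 0.027 and it was not called (adjusted p = 0.537). EZH2, EZH1 and EED kept their direction and call under all 14 alternatives run for each.

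JARID2 showed the largest change of the 10. JARID2 (chromosome 6, 15246296 to 15522040), a Jumonji-family protein without known demethylase activity that marks the PRC2.2 form and helps recruit it, had 174.0, 174.4 and 171.6 CPM with the MYCN hairpin, against 81.6, 72.8 and 84.5 CPM with the control hairpin. Every MYCN hairpin library held about the same level, above all controls. JARID2 rose by 1.12 ± 0.046 on the log2 scale, 2.18-fold (adjusted p = 1.6e-24, edgeR), and 7.62% of tested genes had a higher fold change. AEBP2, the other subunit of the PRC2.2 form, was not a member and fell by 0.24 ± 0.048 (adjusted p = 2.4e-05), and its value was -0.058 with library sizes alone, where it was not called (adjusted p = 0.261).

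MTF2 and PHF19 are Polycomb-like proteins, which bind unmethylated CpG-rich DNA and define the PRC2.1 form, and neither rose with TMM scaling. MTF2 (chromosome 1, 93079235 to 93139081) had 78.1, 85.4 and 87.4 CPM with the MYCN hairpin, against 82.8, 85.2 and 87.5 CPM with the control hairpin. These groups overlapped, and the difference of -0.03 ± 0.048 did not pass the test (adjusted p = 0.634, edgeR), while with library sizes alone it was 0.16 (adjusted p = 0.0037). PHF19 (chromosome 9, 120855652 to 120894896, minus strand) had 130.3, 129.2 and 120.3 CPM with the MYCN hairpin, against 139.4, 149.0 and 131.4 CPM with the control hairpin. PHF19 was lower by a narrow margin, at -0.15 ± 0.045 (adjusted p = 0.0038). That call ended without MYCN hairpin replicate 3 (adjusted p = 0.0527) and with library sizes alone (log2 fold change 0.037, adjusted p = 0.468).

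PHF1, the third Polycomb-like gene and no member, was higher, at 67.7 ± 3.0 CPM with the MYCN hairpin and 40.9 ± 0.42 CPM with the control hairpin (SD, n = 3 each; log2 fold change 0.73 ± 0.054, adjusted p = 7.6e-16, edgeR). Per kilobase, PHF19 made up 37.7% ± 0.96 of the 3 Polycomb-like genes with the MYCN hairpin and 46.3% ± 1.7 with the control hairpin. PHF1 made up 36.7% ± 1.2 and 24.7% ± 0.46. The log2 ratio of JARID2 to MTF2 counts averaged 1.05 ± 0.093 with the MYCN hairpin and -0.10 ± 0.11 with the control hairpin, a difference of 1.15 with no overlap (two-sided exact permutation test, p = 0.1, the smallest possible; adjusted p = 0.15). The ratio of PHF19 to MTF2 overlapped between groups (0.60 ± 0.14 and 0.71 ± 0.11 on the log2 scale; exact permutation test, p = 0.3).

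**Figure D3:**
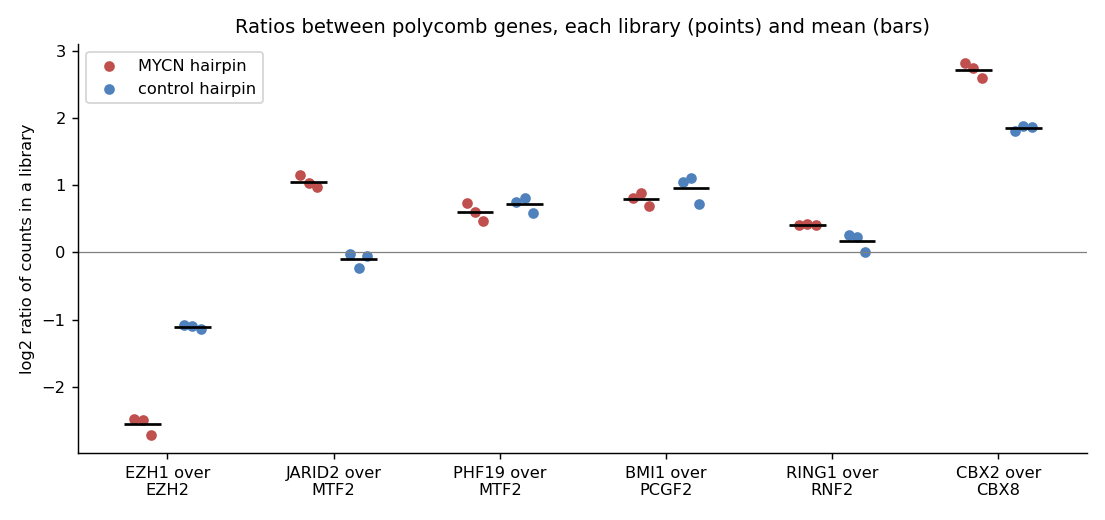
Log2 ratio of the counts of a gene pair within each library (points) with group means (bars), MYCN hairpin left of control hairpin for each of 6 pairs. EZH1 over EZH2, JARID2 over MTF2, RING1 over RNF2 and CBX2 over CBX8 do not overlap between groups, with differences of -1.45, 1.15, 0.24 and 0.87, whereas PHF19 over MTF2 and BMI1 over PCGF2 overlap. BMI1 is here its own row, without the counts of COMMD3-BMI1.

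Of the PRC1 members, CBX2 was the one that rose. CBX2 (chromosome 17, 79778132 to 79787983) binds methylated H3K27 and compacts chromatin. It had 200.7, 194.0 and 200.7 CPM with the MYCN hairpin, against 125.6, 117.5 and 116.1 CPM with the control hairpin. The groups lay well apart, and CBX2 rose by 0.73 ± 0.041 on the log2 scale, 1.66-fold (adjusted p = 1.1e-19, edgeR). Its neighbour and paralogue CBX8 did not pass, at -0.14 ± 0.068 (adjusted p = 0.0664, edgeR). CBX8 was called lower with no filter on low counts (adjusted p = 0.0372), with the replicate block (adjusted p = 0.0387), and without MYCN hairpin replicate 3 (adjusted p = 0.0106), control hairpin replicate 2 (adjusted p = 0.0383) or control hairpin replicate 3 (adjusted p = 0.0362), while its value was 0.046 with library sizes alone. The log2 ratio of CBX2 to CBX8 was 2.71 ± 0.12 with the MYCN hairpin and 1.85 ± 0.036 with the control hairpin (difference 0.87, no overlap; exact permutation test, p = 0.1, adjusted p = 0.15).

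RING1 (chromosome 6, 33208495 to 33212722), a ubiquitin ligase of H2AK119, had 55.5, 51.9 and 57.7 CPM with the MYCN hairpin, against 54.2, 52.8 and 49.4 CPM with the control hairpin. The groups overlapped, and the log2 fold change of 0.08 ± 0.055 did not pass (adjusted p = 0.205, edgeR). With library sizes alone it was 0.26 (adjusted p = 9.4e-05). Its paralogue RNF2 was slightly lower, at -0.16 ± 0.058 (adjusted p = 0.0108), a call that ended without MYCN hairpin replicate 2 or without control hairpin replicate 3 (log2 fold changes of -0.12 and -0.13), and with library sizes alone the value was 0.018. The log2 ratio of RING1 to RNF2 counts was 0.40, 0.42 and 0.40 with the MYCN hairpin, against 0.26, 0.23 and 0.0061 with the control hairpin (exact permutation test, p = 0.1, adjusted p = 0.15). Control hairpin replicate 3 was the library that widened the control spread.

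BMI1 (chromosome 10, 22321211 to 22331484), the PCGF4 subunit known for repressing the CDKN2A locus, shares its locus with another row of the table. It had 83.2, 87.4 and 73.1 CPM with the MYCN hairpin, against 106.0, 102.1 and 84.2 CPM with the control hairpin, a log2 fold change of -0.26 ± 0.107 (adjusted p = 0.0648, edgeR) with overlapping libraries. The table has a second row for COMMD3-BMI1 (chromosome 10, 22316388 to 22329542), an annotated readthrough gene that overlaps BMI1, and both rows hold fractional counts. How the authors' counting divided reads between these rows is not stated. BMI1 took 66.2%, 70.5% and 58.6% of the counts of both rows with the MYCN hairpin, against 67.0%, 68.4% and 52.3% with the control hairpin.

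The sum of both rows varied less among replicates than BMI1 alone, with an SD of 0.845 CPM against 7.36 CPM for the MYCN hairpin and 6.05 CPM against 11.6 CPM for the control hairpin. Together the rows had 125.6, 123.9 and 124.7 CPM with the MYCN hairpin, against 158.2, 149.4 and 161.0 CPM with the control hairpin. The summed level did not overlap between groups and fell by 0.32 ± 0.041 on the log2 scale (adjusted p = 3.2e-09, edgeR), an alternative chosen after the data were seen. With library sizes alone the sum fell by 0.14 on the log2 scale (adjusted p = 0.0017). BMI1 by itself was also called by DESeq2 (adjusted p = 0.0419), with no filter on low counts (adjusted p = 5.6e-07), with a replicate block (adjusted p = 1.3e-08), and without MYCN hairpin replicate 2 (adjusted p = 0.0260), MYCN hairpin replicate 3 (adjusted p = 0.0462) or control hairpin replicate 3 (adjusted p = 3.3e-06). In 8 alternatives BMI1 by itself stayed uncalled, among them library sizes alone (log2 fold change -0.082, adjusted p = 0.567 by edgeR). The log2 ratio of BMI1 to its paralogue PCGF2 overlapped between groups (0.79 ± 0.096 and 0.96 ± 0.21; exact permutation test, p = 0.3). This ratio used the BMI1 row alone, whose share of the counts of both rows differed between replicates. The overlap therefore does not describe the summed rows.

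**Figure D4:**
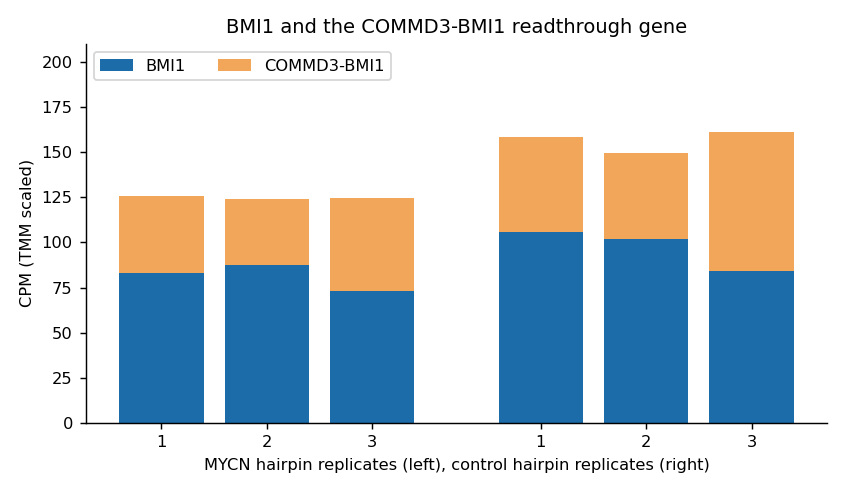
Stacked CPM (vertical axis, from 0) of BMI1 and of the readthrough gene COMMD3-BMI1 in each library, MYCN hairpin replicates on the left and control hairpin replicates on the right. The stack heights lie between 123.9 and 125.6 CPM with the MYCN hairpin and between 149.4 and 161.0 CPM with the control hairpin, while the boundary inside the stack differs between replicates.

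Levels were compared between genes per kilobase of transcript. With the MYCN hairpin EZH2 was highest at 111 ± 0.75 CPM per kilobase, followed by CBX2 (42.7 ± 0.83), SUZ12 (38.8 ± 0.45), RING1 (31.4 ± 1.7), JARID2 (30.1 ± 0.27) and PHF19 (29.8 ± 1.3). BMI1 (23.7 ± 2.1), EED (20.6 ± 0.27), MTF2 (20.3 ± 1.2) and EZH1 (10.8 ± 1.01) came after them. In that order RING1, JARID2 and PHF19 overlapped with their neighbours, as did EED and MTF2. With the control hairpin EZH2 was again highest (57.9 ± 2.7), followed by SUZ12 (43.3 ± 2.3), PHF19 (33.0 ± 2.1), RING1 (29.8 ± 1.4), BMI1 (28.4 ± 3.4) and CBX2 (25.8 ± 1.1). MTF2 (20.7 ± 0.56), EED (17.2 ± 1.2), EZH1 (15.4 ± 0.44) and JARID2 (13.8 ± 1.1) completed it, with overlap between RING1 and BMI1 and between BMI1 and CBX2 (all SD, n = 3). JARID2 thus stood in place 5 with the MYCN hairpin and in place 10 with the control hairpin, and EZH1 in places 10 and 9. BMI1 was placed by its own row, without the counts of COMMD3-BMI1. Its place, and those of genes near it, therefore depend on how reads were divided between both rows.

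Other PRC2 subunits, taken from a list of 7 of which 6 were in the table and tested, rose in 2 cases (PHF1 and RBBP7) and fell in 3 (RBBP4, EPOP and AEBP2), with a median of -0.13 (3 higher and 2 lower with library sizes alone). The 5 called of 6 stand beside 75.8% of all tested genes (38.0% higher and 37.9% lower). RBBP4, a histone-binding protein shared with other chromatin complexes, had 305.6, 296.1 and 311.4 CPM with the MYCN hairpin, against 589.5, 581.7 and 613.8 CPM with the control hairpin. It fell by 0.97 ± 0.039 (adjusted p = 9.8e-25, edgeR). Its paralogue RBBP7 rose by 0.17 ± 0.039 (adjusted p = 1.3e-04), and RBBP4 made up 24.5% ± 0.51 of their per-kilobase sum with the MYCN hairpin and 41.6% ± 0.61 with the control hairpin. The gene EPOP, a PRC2.1 subunit that links the complex to elongin, fell by 0.89 ± 0.057 (adjusted p = 8.6e-18). LCOR, whose locus also encodes a PRC2.1 subunit, did not pass at -0.02 (adjusted p = 0.625).

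**Figure D5:**
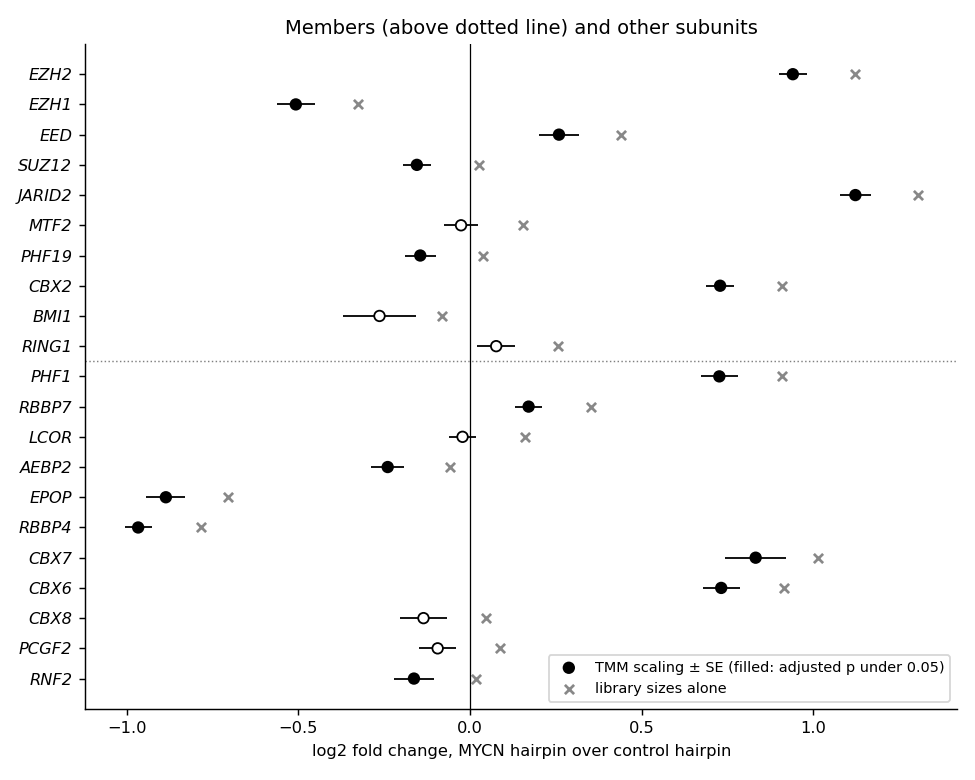
Log2 fold change of MYCN hairpin over control hairpin (horizontal axis) for the members, above the dotted line, and for other subunits. Circles with SE use TMM scaling, filled where the adjusted p was under 0.05, and crosses use library sizes alone, which lie to the right of the circles and, of the members, put SUZ12, PHF19 and MTF2 above 0 (0.027, 0.037 and 0.16).

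Of 12 other canonical PRC1 subunits, 5 rose and 4 fell, with a median of -0.047, against 6 and 2 with library sizes alone. The 9 called of 12 stand beside 75.8% of all tested genes (38.0% higher and 37.9% lower). The chromodomain genes CBX7 (0.83 ± 0.088) and CBX6 (0.73 ± 0.054) and the SAM-domain gene SCML2 (0.57 ± 0.045) had the smallest p-values of those that rose. SCMH1 (-0.54), PHC1 (-0.32) and PHC3 (-0.24), of the SAM-domain and polyhomeotic families, had the smallest of those that fell, and PHC3 was not called with library sizes alone (log2 fold change -0.055). Of 22 genes of variant PRC1 forms, in which RYBP or YAF2 replaces a CBX protein, 7 rose and 11 fell, with a median of -0.103. The 18 called of 22 stand beside the same 75.8%. RYBP rose by 0.48, HDAC1 by 0.44 and the E2F partner gene TFDP1 by 0.27, while AUTS2 fell by 0.78, FBRSL1 by 0.52 and MGA by 0.40. With library sizes alone 11 of the variant genes were higher and 5 lower.

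Genes that remove or compete with Polycomb marks also moved in both directions. Of 11 genes of the H2AK119 deubiquitinase complex, 1 rose and 5 fell, with a median of -0.093, against 5 and 3 with library sizes alone. The 6 called of 11 stand beside 75.8% of all tested genes (38.0% higher and 37.9% lower). OGT, the O-GlcNAc transferase that binds the complex, had 146.7, 155.4 and 145.9 CPM with the MYCN hairpin, against 344.2, 356.8 and 355.8 CPM with the control hairpin, and fell by 1.24 ± 0.040 (adjusted p = 3.3e-28, edgeR). KDM1B (-0.57) and ASXL2 (-0.33) fell as well, and FOXK1 was higher by 0.16, a call that ended without MYCN hairpin replicate 3 or without control hairpin replicate 3 (log2 fold changes of 0.13 and 0.11). The H3K27 demethylase genes moved in opposite directions. KDM6A rose by 0.81 ± 0.059 (58.2 ± 3.4 CPM with the MYCN hairpin and 33.3 ± 2.1 CPM with the control hairpin), and KDM6B fell by 1.23 ± 0.065 (21.1 ± 0.11 and 49.5 ± 3.9 CPM; SD, n = 3 each). Of the H3K27 acetyltransferase genes, CREBBP rose by 0.17 and EP300 did not pass at -0.05 (adjusted p = 0.338).

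A list of 60 developmental genes known as Polycomb targets in other cells gave no uniform direction. Of these, 47 were in the table, 3 had 0 counts in every library and 27 passed the filter on low counts, of which 5 rose and 11 fell with a median of -0.040. The 16 called of 27 stand beside 75.8% of all tested genes (38.0% higher and 37.9% lower). With library sizes alone 5 were called higher and 9 lower. A gene could pass the filter through either group, so these counts do not describe all targets. The homeobox genes HOXA11 and HOXA13 fell by 1.76 ± 0.25 and 1.46 ± 0.19, with 44 and 90 counts over the MYCN hairpin libraries against 134 and 222 over the controls. IRX3 rose by 1.81 ± 0.24 (153 counts against 39), LHX9 by 1.72 ± 0.38 (67 against 18) and HOXC10 by 0.51 ± 0.12, while GATA4 fell by 0.41 ± 0.071. The most abundant library value in this list was 27.7 CPM, and 17 of 38 HOX genes were tested, 3 higher and 6 lower.

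S phase genes and known E2F targets, which share their regulators with EZH2 and EED, were divided as well. All 20 were called, 10 higher and 10 lower, with a median of -0.051. Over all tested genes 75.8% were called, 38.0% higher and 37.9% lower. With library sizes alone 10 of the 20 were called higher and 7 lower. The cyclin genes CCNE2 (2.24 ± 0.043) and CCNE1 (1.39 ± 0.051) and the ribonucleotide reductase gene RRM2 (0.77 ± 0.039) rose, while the cyclin gene CCNA2 (-0.53 ± 0.046) and the helicase genes MCM4 (-0.43 ± 0.038) and MCM7 (-0.41 ± 0.039) fell (SE; adjusted p up to 2.2e-12, edgeR). The part of the cell cycle in the higher EZH2 level was not tested.

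Short sequences in the members' transcripts are shown because 2 sequences of 7 bases, AGCACAA and GTGGATC, had been chosen from the fold changes of these same data. Their presence here is a description only. Of the 10 members, 6 carried one of them in the GENCODE 29 transcript used, against 38.9% of 12508 tested genes, and 4 carried one in the 3' untranslated region (UTR), against 18.3%. Each site is given with 10 bases on either side, the 7 bases in capitals. Those of EZH2 and JARID2 lie in the coding region, and the others in the 3' UTR.

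EZH2: cttgtgtgatAGCACAAaatttttgtg

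JARID2 first site: ccaggctgcaAGCACAAaggaagtttg

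JARID2 second site: gaatagtcccAGCACAActccagtaaa

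CBX2: gggaggaggcGTGGATCctggcacgct

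MTF2: tcatgtagatAGCACAAgtatttggag

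PHF19: ctgggaagatAGCACAAggcctaatga

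BMI1 first site: ctgcaaaagaAGCACAAttctattgct

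BMI1 second site: tgatatgaaaAGCACAAtgtgcagaag

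EZH1, EED, SUZ12 and RING1 carried neither sequence. RBBP4, which is no member, carried 2 copies of AGCACAA and 3 of GTGGATC, all but 1 of these in its 3' UTR of 6506 bases. OGT, EPOP and KDM6A carried neither, and KDM6B carried AGCACAA once.

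The cells had the markers that the line's label implies. Of 8 photoreceptor and retinoblastoma marker genes all were tested, 7 rose and 1 fell, beside 38.0% higher and 37.9% lower of all tested genes. Their median log2 fold change was 1.41, and 5 of the 8 were called with a change of at least 2-fold, beside 1857 of 12819 tested genes. Those with the smallest p-values among the 7 were THRB (2.45), NRL (1.26) and RXRG (1.56), and the one that fell was OTX2 (-0.67). The summed level of all 8, in which the most abundant genes weigh most, was 1485 to 1528 CPM with the MYCN hairpin and 1478 to 1561 CPM with the control hairpin. This sum therefore does not show the changes of single markers. In bulk RNA, a change in the share of cells of a type and a change of RNA per cell cannot be told apart. Fibroblast markers (5 of 6 in the table) summed to 5.06 to 6.43 and 2.22 to 2.67 CPM, with DCN and LUM at 0 in all but 1 library each, while COL1A1 (1.29) and COL1A2 (2.11) were higher and PDGFRB was not called (0.0095). Of the blood cell markers, PTPRC was at most 0.208 CPM and LYZ at most 0.549 CPM in any library, and CD68 was not called (-0.30). Müller glia markers summed to 1172 to 1204 and 1150 to 1195 CPM, nearly all from GLUL (-0.35) and VIM (0.68), with SLC1A3 not called (0.21), RLBP1 at 0 in every MYCN hairpin library and AQP4 at 0 in every control hairpin library. The part of photoreceptor maturation in the changes of Polycomb genes was not tested.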

How the data were processed

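RNA of 6 Y79 libraries was prepared with TRIzol and poly(A) selection, per the labels' protocols. The authors deposited estimated counts for each gene symbol and library, not normalized as far as their totals show. The submitters' processing notes name GRCh38. No source used here names an aligner, a counter, a strand setting or an annotation. Of 17035 rows, 22 without values were left out, which left 17013 genes. Counts were rounded, filtered with filterByExpr (minimum count 10; 12819 genes) and tested with edgeR 4.0.16 in R 4.3.3 (quasi-likelihood F-test, robust, TMM scaling), with Benjamini-Hochberg adjustment over all tested genes at 0.05. CPM were computed from unrounded counts. SE came from the F statistic.

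The members, gene lists and tests were chosen with earlier results of these data known. Named genes are the 10 members, all tested genes of lists with at most 7, and otherwise the 3 with the smallest p in each direction, plus ratio partners and MYCN. COMMD3-BMI1 and single marker genes were added outside that rule, after values were seen. Positions and transcripts (1 per gene, preferring the principal isoform) came from GENCODE 29, promoters from RefSeq. Alternatives were DESeq2 1.42.0, limma-voom (limma 3.58.1), RLE, upper quartile and library size scaling, other filters, a replicate block and each library left out. Some genes of the lists are not reported here. Replicate numbers were not taken as pairs of libraries. Methods were tested on simulated data in which few genes changed, equally up and down, so that test does not bear on the choice of scaling. Python 3.11.15, scipy 1.17.1 and pandas 2.3.3 were used.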

Additional observations from a re-analysis of the deposited data

How the results depend on the processing

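JARID2, EZH2, CBX2, EED and EZH1 kept direction and call in all 14 alternatives each. Of 64 named genes, 50 did so in all of theirs. With library sizes alone, 1 member was called lower in place of 3, canonical PRC1 genes called lower were 2, variant PRC1 genes called higher and lower 11 and 5, and H2AK119 deubiquitinase genes 5 and 3. That scaling turned the log2 fold changes of SUZ12 (0.027), MTF2 (0.16), PHF19 (0.037), LCOR (0.16), EP300 (0.13), PCGF2 (0.087), RNF2 (0.018) and CBX8 (0.046); none of the causes was tested. Over all genes it gave 6597 higher and 3348 lower, in place of 4865 and 4857. Upper quartile scaling turned MTF2 (0.012) and LCOR (0.017). The H2AK119 genes called higher were 2 in place of 1 with upper quartile scaling, the 1 CPM filter or the replicate block, and 0 to 2 when a library was left out. CBX8 gained a call in 5 of 14 alternatives, and PCGF2 without control hairpin replicate 2 (-0.13, adjusted p = 0.0418). MTF2 was -0.060 to 0.022 when a library was left out. PDGFRB was -0.0033 with no filter, -0.16 and -0.022 without MYCN hairpin replicates 1 and 2 and -0.20 without control hairpin replicate 3, with 0.19 as the highest when a library was left out. Leaving out a library gave EZH1 over EZH2 differences of -1.49 to -1.38 and JARID2 over MTF2 differences of 1.09 to 1.19.

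Deviations of same-numbered libraries correlated at 0.12, 0.104 and 0.026, and the numbers were not taken as pairs. Libraries of different numbers were not compared in this way, so the check cannot exclude pairing. With the replicate block 4967 genes were higher and 4939 lower, 4 members each way, BMI1 joining those called lower. Depth limited few members, which had at least 544 counts per library, but limited the developmental target list, of which 20 of 47 genes in the table were not tested.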
